A study of Mus musculus with 2 samples.

Results

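The genes described are the intermediate filament genes of brain neurons and glia, 7 of the 43346 Ensembl genes in the tables: Nefl, Nefm, Nefh, Ina, Prph, Gfap and Vim. They were chosen by name, through the symbols of their gene identifiers, and they hold 16 annotated transcripts. RNA of brain tissue from 1 male C57BL/6J mouse of 10 weeks, an inbred laboratory strain with no treatment, was poly(A)-selected and sequenced in 2 libraries. These are called replicate 2 and replicate 1, technical replicates of 1 biological replicate, and replicate 2 was made later. All values thus come from 1 animal, the sources used here do not give the brain regions taken, and the comparison is of replicate 2 over replicate 1, with 1 library a side and no replicate check.

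Intermediate filaments are rope-like polymers built from rod-shaped proteins. In axons the light, medium and heavy neurofilament proteins (Nefl, Nefm, Nefh) assemble with alpha-internexin (Ina), and this network sets the calibre of large axons. Peripherin (Prph) is the filament protein of peripheral neurons and of neurons that project out of the brain and cord, glial fibrillary acidic protein (Gfap) is that of astrocytes, and vimentin (Vim) is made by vessel, meningeal and ependymal cells and by immature glia.

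The subunits share a rod and differ in their tails, which are shown here because they set the names light, medium and heavy apart. A stretch of 90 coding bases of each tail follows, 5′ to 3′ on the coding strand, from GENCODE M21 transcripts on GRCm38. In Nefh and Nefm, capitals mark codons of the triplet lysine-serine-proline, the site at which the tails are phosphorylated. In Nefl, capitals mark codons of glutamate.
Nefh tail, codons 519 to 548: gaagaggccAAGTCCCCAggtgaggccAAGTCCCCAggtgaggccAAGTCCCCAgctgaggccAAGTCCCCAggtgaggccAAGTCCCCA
Nefm tail, codons 478 to 507: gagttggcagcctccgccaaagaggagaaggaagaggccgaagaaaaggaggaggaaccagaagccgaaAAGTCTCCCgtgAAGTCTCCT
Nefl tail, codons 468 to 497: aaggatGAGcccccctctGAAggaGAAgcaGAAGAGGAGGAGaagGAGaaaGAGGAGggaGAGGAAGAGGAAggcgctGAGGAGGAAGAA

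The Nefh window lies at chr11:4940974-4941063 (minus strand), the Nefm window at chr14:68121063-68121152 (minus strand) and the Nefl window at chr14:68086716-68086805 (plus strand). The Nefh window holds 5 triplets, the Nefm window 2 and the Nefl window 18 glutamate codons. Over the whole coding sequence Nefh has 51 lysine-serine-proline triplets, Nefm 4 and the other 5 members 0. Of 21721 protein-coding genes, 10.6% have at least 1 such triplet, and Nefh has the highest number of them all. The coding sequences give 1090 residues for Nefh, 848 for Nefm and 543 for Nefl, and 45.0% of the last 100 residues of Nefl are glutamate. The Nefh window is also the richest in GC, at 65.6%, while the Nefm and Nefl windows are both at 55.6%.

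The counts assigned to genes came to 17828479 in replicate 2 and to 18302506 in replicate 1. TPM is a transcript level scaled for length and depth. Across the 14229 genes whose TPM averaged 1 or more, the log2 ratio of replicate 2 over replicate 1 had a median of 0.88, with 1 TPM added to each value. That ratio ran with the GC content of the transcripts, with a Spearman rho of 0.89 across 14188 genes, which are not independent replicates. For calls, each gene's counts were compared by an exact binomial test and called different at a 2-fold difference or more and a p under 0.05 after Benjamini-Hochberg adjustment, with library sizes scaled by TMM (edgeR's trimmed mean of M values). By this rule 34.5% of 16320 genes tested were higher in replicate 2 and 24.0% were lower. Scaled by library totals instead, the shares were 43.6% and 7.9%, and with a smooth GC trend removed they were 10.4% and 9.25%. The choice between TMM and totals moved the median of all genes tested by 0.61 on the log2 scale, so both are given where a call or a sign below depends on the choice.

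All 7 members had counts in both libraries and all 7 had a higher TPM in replicate 2. Most genes did so too: among those averaging 1 TPM or more, the first quartile of the log2 TPM ratio was -0.03. Of the 7 members, 5 lay above the median of these genes, 0.88. The neurofilament genes and Ina led, with a summed TPM of 538.0 in replicate 2 and 351.9 in replicate 1, while Gfap and Vim summed to 139.7 in replicate 2 and 26.6 in replicate 1. Gfap and Prph, 2 of the 7 members, were called higher in replicate 2 by TMM-scaled counts and none was called lower, against the 34.5% and 24.0% of all genes. With library totals Nefm and Nefh joined them, 4 of 7 against 43.6%. With the GC trend removed no member was called higher, against 10.4%, and Nefh, Ina and Vim were called lower, against 9.25%. Intervals below are exact 95% intervals that cover counting error only, and each mean ± SD is taken across the 2 libraries.

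**Figure D1:**
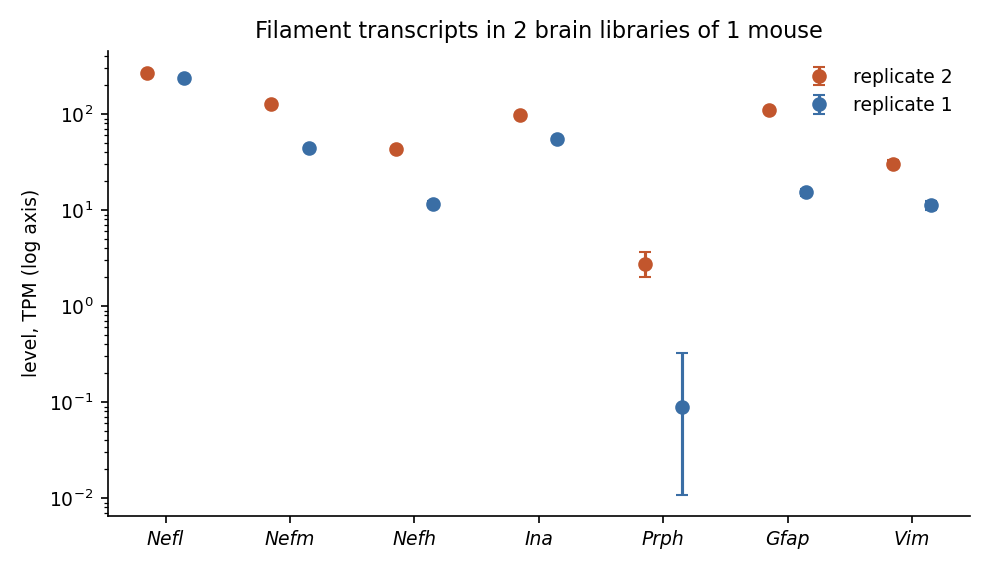
TPM of each filament gene on a log axis in replicate 2 (left point of each pair) and replicate 1 (right point), with exact 95% counting intervals. Every gene stands higher in replicate 2 on this scale, from Nefl at 270.0 TPM in replicate 2 and 240.2 in replicate 1 to Prph at 2.76 TPM in replicate 2 and 0.09 in replicate 1; on TMM-scaled counts Nefl and Ina stand lower in replicate 2.

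Nefl, the light subunit on which the other subunits assemble (ENSMUSG00000022055.7, chromosome 14, 68083863 to 68089095, plus strand, 4 exons), was the most abundant member. It had 270.0 TPM from 9345 counts in replicate 2 and 240.2 TPM from 11037 counts in replicate 1 (255.1 ± 21.03, SD, n = 2). It ranked 468 among all genes in replicate 2 and 231 in replicate 1. On TPM the ratio was 1.12 (1.09 to 1.16), while on counts Nefl was lower in replicate 2, at -0.81 on the log2 scale with TMM and -0.20 with library totals. It was not called different at 2-fold by any scaling tried. Its direction thus depends on the scale, and among the members its level differed least between the libraries on TPM.

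Nefm, the medium subunit (ENSMUSG00000022054.7, chromosome 14, 68082590 to 68124846, minus strand), had 126.4 TPM from 4316 counts in replicate 2 and 44.4 TPM from 2011 counts in replicate 1 (85.4 ± 58.0, SD, n = 2). The TPM ratio was 2.85 (2.70 to 3.005). On counts its log2 ratio was 0.53 with TMM, short of 2-fold (exact binomial test, adjusted p = 4.18e-43), and 1.14 with library totals, where it was called higher. The light and medium subunit genes are neighbours on chromosome 14, with 30187 bases between Nefl and the main Nefm transcript. They nonetheless differed between the libraries by unequal amounts. Nefm-202, a longer Nefm transcript model that runs antisense over Nefl, shares 1108 of its 3680 exonic bases with Nefl exons. It held 0.55% of Nefm in replicate 2, from 26.2 counts, and 0.49% in replicate 1, from 11.0 counts. No source used here states whether counting used strand. The posterior SD of a count, the deposited measure of doubt in read assignment, was 0 for Nefl and for Nefm in both libraries. For Nefm-202 it was 2.58 in replicate 2 and 0.11 in replicate 1, the same as for Nefm-201. The deposited estimates thus record no doubt between Nefl and Nefm.

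Nefh, the heavy subunit that carries the long repeat shown above (ENSMUSG00000020396.8, chromosome 11, 4938754 to 4948064, minus strand, 4 exons), had 42.9 TPM from 1769 counts in replicate 2 and 11.6 TPM from 636 counts in replicate 1 (27.2 ± 22.1, SD, n = 2). Replicate 2 over replicate 1 gave a TPM ratio of 3.69 (3.37 to 4.05), the highest of the 3 neurofilament subunits. On counts the log2 ratio was 0.90 with TMM, short of 2-fold (exact binomial test, adjusted p = 9.27e-45), and 1.51 with library totals, where Nefh was called higher. The repeat can place reads in more than 1 position within the gene, and the posterior SD of the gene's count cannot show this. That SD was 0 in both libraries for Nefh and for all 7 members, as for 88.1% of 17598 genes with counts in both.

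Ina, alpha-internexin, which forms filaments early in neuronal development and stays a subunit in the adult brain (ENSMUSG00000034336.3, chromosome 19, 47014698 to 47025327, plus strand, 3 exons), had 98.8 TPM from 3268 counts in replicate 2 and 55.7 TPM from 2446 counts in replicate 1 (77.2 ± 30.5, SD, n = 2). This was a TPM ratio of 1.77 (1.68 to 1.87). The log2 count ratio was -0.15 with TMM (exact binomial test, adjusted p = 9.5e-05, not called) and 0.46 with library totals, so the sign depends on the scaling. Ina ranked 1431 in replicate 2 and 1472 in replicate 1, so its place among all genes hardly moved. Its first 456 bases overlap Nt5c2, a nucleotidase gene on the opposite strand, for which replicate 2 had 1004 counts and replicate 1 had 905. The use of strand in counting is not known, but the posterior SD of the count of Ina was 0 in both libraries.

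Set against Nefl within each library, the other subunits took a larger part in replicate 2. Nefm over Nefl was 0.468 (0.452 to 0.486) in replicate 2 and 0.185 (0.176 to 0.194) in replicate 1, a 2.54-fold difference (2.39 to 2.69). Nefh over Nefl was 0.159 (0.151 to 0.167) in replicate 2 and 0.0483 (0.0445 to 0.0524) in replicate 1, a 3.29-fold difference (2.99 to 3.62). Ina over Nefl was 0.366 (0.351 to 0.381) in replicate 2 and 0.232 (0.222 to 0.242) in replicate 1, a 1.58-fold difference (1.49 to 1.68). These ratios do not depend on how the libraries were scaled, and none of the 3 intervals of the difference includes 1. They do depend on base composition being left in. With the GC trend removed, the log2 count ratios were -0.68 for Nefl, -0.91 for Nefm, -2.94 for Nefh and -2.64 for Ina. On that scale each of the other subunits stood lower in replicate 2 than Nefl did, so on counts the direction of all 3 differences turned. The log2 TPM ratios with the trend removed were -0.53 for Nefl, -0.40 for Nefm, -1.48 for Nefh and -1.73 for Ina. On TPM the differences for Nefh and Ina thus turned, while Nefm stayed above Nefl. Their GC contents are 58.4% for Nefh, 55.5% for Ina, 53.4% for Nefm and 48.8% for Nefl, and the part of GC content in the ratios was not tested.

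Before any removal of the GC trend, Nefm and Nefh kept a closer relation to each other than either did to Nefl. Nefh over Nefm was 0.339 in replicate 2 and 0.262 in replicate 1, a 1.30-fold difference (1.17 to 1.44). Ina over Nefm was 0.781 in replicate 2 and 1.25 in replicate 1, so the order of these genes turned between the libraries. Of the summed TPM of the 4 genes, Nefl held 50.2% in replicate 2 and 68.3% in replicate 1. Nefm held 23.5% in replicate 2 and 12.6% in replicate 1. Ina held 18.4% in replicate 2 and 15.8% in replicate 1, and Nefh held 7.97% in replicate 2 and 3.30% in replicate 1. In both libraries Nefl made up most of the total and Nefh was the smallest part.

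**Figure D2:**
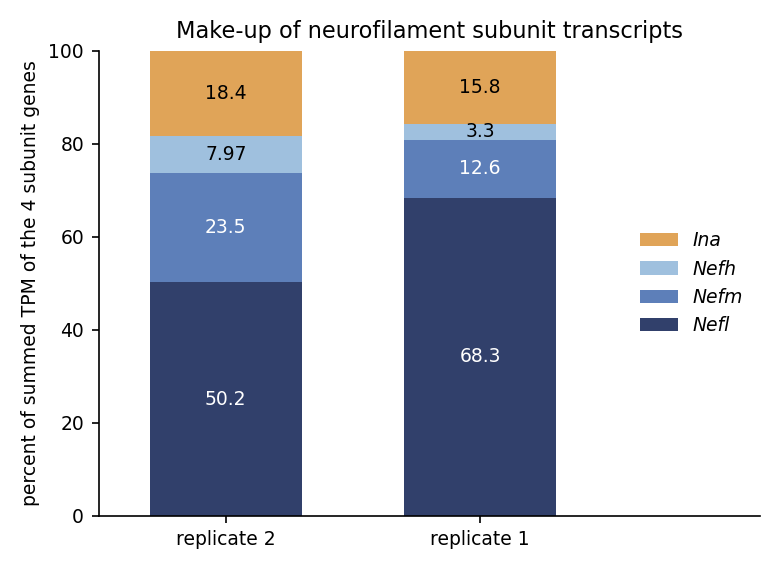
Percent of the summed TPM of Nefl, Nefm, Nefh and Ina held by each gene, in replicate 2 (left bar) and replicate 1 (right bar). Nefl holds 50.2% in replicate 2 and 68.3% in replicate 1, and Nefm holds 23.5% in replicate 2 and 12.6% in replicate 1.

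Prph (ENSMUSG00000023484.9, chromosome 15, 99055174 to 99058978, plus strand) was the lowest member in both libraries. It had 2.76 TPM from 48 counts in replicate 2 and 0.09 TPM from 2 counts in replicate 1 (1.43 ± 1.89, SD, n = 2). The TPM ratio was 30.7, with a wide counting interval of 8.04 to 260.5 that rests on those 2 counts. Prph was called higher with TMM (exact binomial test, adjusted p = 9.7e-09) and with library totals. In replicate 1 Prph thus stood under the 3 counts that a count of 0 allows. Its transcripts were shared out as 79.0% Prph-201 and 21.04% Prph-202, a model with a longer coding sequence, in replicate 2, and 100% Prph-201 in replicate 1, but Prph-202 rested on 10.6 counts in replicate 2 and 0 in replicate 1.

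Markers of neurons known to make peripherin were low as well. The 4 markers of peripheral sensory neurons summed to 1.63 TPM in replicate 2 and 0.06 TPM in replicate 1. Avil, an actin-binding protein of sensory neurons, had 11 counts in replicate 2 and 0 in replicate 1. The 5 markers of brainstem and spinal motor neurons summed to 8.58 TPM in replicate 2 and 8.93 TPM in replicate 1. Slc5a7, the choline transporter, led them with 3.55 TPM in replicate 2 and 5.53 in replicate 1. The sum hides unequal members, since of the 3 tested 1 was called higher and 2 lower, with TMM and with library totals. The shares of all genes tested were 34.5% higher and 24.0% lower with TMM, and 43.6% and 7.9% with library totals. No marker of these lists was at 0 in both libraries, and their part in the level of Prph was not tested.

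Markers of neurons in general bear on the other neuronal members. The 5 pan-neuronal markers summed to 4462 TPM in replicate 2 and 4086 in replicate 1, led by Snap25, a synaptic fusion protein, at 2764 TPM in replicate 2 and 3457 in replicate 1. Syt1, the calcium sensor of release, reached 569.7 TPM in replicate 2 and 503.0 TPM in replicate 1. Snap25 dominates this sum. Of the 5 markers, 3 were called higher and 1 lower with TMM. Library totals gave 3 and 0, and removing the GC trend gave 0 and 2. The shares of all genes tested were 34.5% higher and 24.0% lower with TMM. They were 43.6% and 7.9% with library totals, and 10.4% and 9.25% with the GC trend removed. Markers of large projection or fast-spiking neurons, cells rich in neurofilament, summed to 435.8 TPM in replicate 2 and 118.1 in replicate 1. Among them the calcium buffer Pvalb had 165.5 TPM in replicate 2 and 27.9 in replicate 1, and the vesicle protein Vamp1 had 166.9 in replicate 2 and 57.5 in replicate 1. Of these 4 markers, 2 were called higher and 0 lower with TMM, and 3 and 0 with library totals. With the GC trend removed they were 1 and 0. Vamp1 was not called with TMM. Spp1, at 26.25 TPM in replicate 2 and 18.43 in replicate 1, had a TMM log2 count ratio of -0.47 and was not called. Their part in the neurofilament levels was not tested. Both libraries are technical replicates of 1 mouse, and a marker level in tissue does not separate the number of cells from the RNA per cell.

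Gfap (ENSMUSG00000020932.10, chromosome 11, 102887336 to 102900912, minus strand) differed most between the libraries among the members above 10 TPM in both. It had 109.3 TPM from 2911 counts in replicate 2 and 15.3 TPM from 541 counts in replicate 1 (62.3 ± 66.4, SD, n = 2). The TPM ratio was 7.13 (6.50 to 7.83). Gfap was called higher in replicate 2 with TMM, at 1.85 on the log2 scale (exact binomial test, adjusted p = 2.56e-214), and with library totals, at 2.47. With the GC trend removed its log2 count ratio was -0.44 and it was not called, while its log2 TPM ratio was 0.33. The sign thus depends on the scale. It ranked 1276 among all genes in replicate 2 and 4334 in replicate 1, so that it passed Ina in the order of the members. The lincRNA Gm26668 spans the gene on the opposite strand and had 0 counts in both libraries, which allows up to 3 counts in each.

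Gfap also makes alternative ends. Both main proteins share their first exons, and then GFAP-alpha (Gfap-201, 430 residues) reads on into the last exons, while GFAP-delta (Gfap-202, 428 residues) ends in an exon of its own within the seventh intron. The coding end of Gfap-202 is shown because it is read from that transcript alone. Capitals mark bases that Gfap-201 lacks, here the whole stretch (minus strand of chromosome 11, GRCm38).
Gfap-202 coding end: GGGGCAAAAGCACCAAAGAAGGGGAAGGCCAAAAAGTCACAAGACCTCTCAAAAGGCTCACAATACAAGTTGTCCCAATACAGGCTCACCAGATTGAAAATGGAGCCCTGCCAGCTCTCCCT

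This stretch lies at chr11:102891399-102891520. Gfap-201 held 91.8% of the gene in replicate 2 and 79.2% in replicate 1, at 100.3 TPM in replicate 2 and 12.2 TPM in replicate 1. Gfap-202 held 8.19% in replicate 2 and 20.8% in replicate 1, at 8.95 TPM in replicate 2 and 3.19 TPM in replicate 1. Its estimated counts were 234.1 in replicate 2 and 110.8 in replicate 1, with posterior SDs of 11.1 in replicate 2 and 1.16 in replicate 1. As a share of the gene's counts Gfap-202 was 8.04% (7.08 to 9.09) in replicate 2 and 20.5% (17.2 to 24.2) in replicate 1 (Clopper-Pearson), intervals that do not overlap. Both transcripts were higher in replicate 2 on TPM, and the alpha end was higher by more. Gfap-203, a short noncoding model, had 0 counts in both libraries.

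The parts that tell the ends apart differ in base composition. The 1472 bases found only in Gfap-201, coding and untranslated, have a GC content of 52.4%, the 1424 bases found only in Gfap-202 have 46.2%, and the 1176 shared bases have 59.4%. The part of GC content in the transcript shares was not tested.

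**Figure D3:**
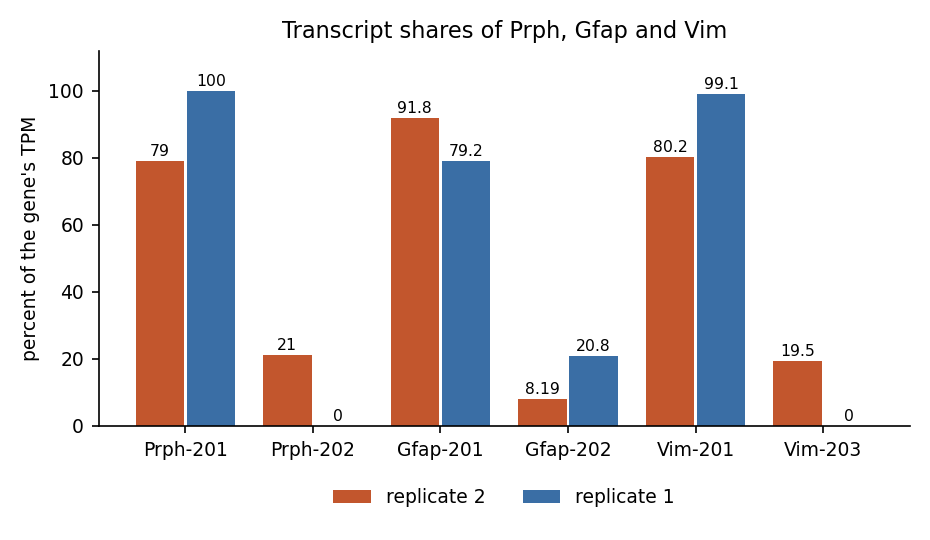
Percent of each gene's TPM held by the transcripts of Prph, Gfap and Vim that reach 1% in either library, in replicate 2 (left bars) and replicate 1 (right bars). Gfap-202 stands at 8.19% in replicate 2 and 20.8% in replicate 1, while Prph-202 and Vim-203 appear in replicate 2 alone, each from under 25 counts.

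Other astrocyte genes lay on both sides. The 9 astrocyte markers summed to 2057 TPM in replicate 2 and 1053 in replicate 1, with 3 called higher, 2 lower and 4 not called with TMM, shares near the 34.5% and 24.0% of all genes. Library totals gave 4 higher and 0 lower, where the shares of all genes were 43.6% and 7.9%. Removing the GC trend gave 2 higher and 0 lower, against 10.4% and 9.25%. Slc1a2, the main glutamate transporter, had 346.1 TPM in replicate 2 and 396.7 in replicate 1 and was called lower with TMM but not with library totals. Aldoc, a glycolytic enzyme of astrocytes, had 1022 TPM in replicate 2 and 199.3 in replicate 1 and was called higher. Of 5 genes raised in reactive astrocytes, which summed to 24.9 TPM in replicate 2 and 17.1 in replicate 1, 1 was called higher and 1 lower with TMM. These were Serpina3n, a protease inhibitor, at 11.7 TPM in replicate 2 and 1.29 in replicate 1, and Cp, the copper-binding ceruloplasmin, at 9.12 in replicate 2 and 12.8 in replicate 1, whose lower call was lost with library totals. The part of these markers in the Gfap level was not tested.

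Vim (ENSMUSG00000026728.5, chromosome 2, 13573927 to 13582826, plus strand) had 30.4 TPM from 555 counts in replicate 2 and 11.2 TPM from 326 counts in replicate 1 (20.8 ± 13.5, SD, n = 2). The TPM ratio was 2.70 (2.35 to 3.10), but the log2 count ratio with TMM was 0.19 and did not pass the test (exact binomial test, adjusted p = 0.065). With library totals it was 0.80, short of 2-fold. The effective length of the gene, by which TPM divides the counts, was 1686 bases in replicate 2 and 2017 in replicate 1. That length falls with the weight of short transcripts, and a short model, Vim-203, a retained intron form of 535 bases, held 19.5% of the gene's TPM in replicate 2 and 0% in replicate 1. It rested on 22.3 counts with a posterior SD of 9.63 in replicate 2, and only 52 of its bases (chromosome 2, 13579369 to 13579420) lie outside Vim-201. The full-length Vim-201 (466 residues, 9 exons) stood at 24.35 TPM in replicate 2 and 11.15 TPM in replicate 1.

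Vim over Gfap was 0.278 (0.253 to 0.304) in replicate 2 and 0.734 (0.638 to 0.844) in replicate 1, so the glial gene stood above the more widely made one in both libraries, by more in replicate 2. Markers of cells that make vimentin were present in both. Those of endothelial cells summed to 86.0 TPM in replicate 2 and 16.5 in replicate 1, led by the junction protein Cldn5 at 48.6 TPM in replicate 2 and 0.40 in replicate 1, and Flt1, a VEGF receptor, at 17.9 in replicate 2 and 10.9 in replicate 1. Those of mural cells summed to 150.2 TPM in replicate 2 and 94.5 in replicate 1, a sum of unequal members. Rgs5 had 61.4 TPM in replicate 2 and 88.0 in replicate 1, and Vtn had 59.8 in replicate 2 and 4.92 in replicate 1. Of the 4 mural markers, 3 were called higher and 1 lower with TMM. Library totals gave 3 and 0, and so did removing the GC trend. Those of meningeal fibroblasts summed to 28.1 TPM in replicate 2 and 21.9 in replicate 1, led by Dcn, a matrix proteoglycan, at 19.1 in replicate 2 and 17.1 in replicate 1. Those of ependymal cells summed to 44.1 TPM in replicate 2 and 2.37 in replicate 1, with Foxj1, the cilia regulator, at 224 counts in replicate 2 and 0 in replicate 1. Those of neural stem cells and precursors summed to 33.4 TPM in replicate 2 and 44.7 in replicate 1. With TMM, 3 endothelial, 1 meningeal and 4 ependymal markers, of 4 each, were called higher, and 0, 1 and 0 lower. Of 6 precursor markers 0 were called higher and 4 lower. Library totals gave 2 and 0 for meningeal and 0 and 1 for precursor markers. Removing the GC trend gave 1 and 0 for endothelial, 0 and 2 for meningeal and precursor, and 4 and 0 for ependymal markers. Microglia summed to 167.5 TPM in replicate 2 and 64.0 in replicate 1, and oligodendrocytes to 4390 TPM in replicate 2 and 1472 in replicate 1. Of 4 microglial markers 2 were called higher and 1 lower with TMM, and 2 and 0 with library totals. With the GC trend removed they were 1 and 0. Of 4 oligodendrocyte markers 2 were called higher and 0 lower with TMM and with library totals, and 0 and 0 with the trend removed. Of all genes tested, 34.5% were higher and 24.0% lower with TMM. These shares were 43.6% and 7.9% with library totals, and 10.4% and 9.25% with the GC trend removed. The part of these markers in the Vim level was not tested.

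In order of level, replicate 2 had Nefl, Nefm, Gfap, Ina, Nefh, Vim and Prph, and each step between neighbours was larger than its counting error. The closest were Gfap over Ina at 1.11 (1.05 to 1.16) and Nefm over Gfap at 1.16 (1.10 to 1.21). Replicate 1 had Nefl, Ina, Nefm, Gfap, Nefh, Vim and Prph, and there Nefh over Vim was 1.03 (0.902 to 1.18), which is not distinguishable at this depth. Nefl at the top and Nefh, Vim and Prph at the bottom were common to both orders, and the middle places turned.

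Read against genes of like base composition, the members lay mostly on the low side. Among the 500 genes nearest to each in GC content, all averaging 1 TPM or more, the log2 TPM ratio of 6 of the 7 members was under the median. Gfap was the exception, at 2.76 against a median of 2.54, higher than 57.0% of its neighbours. Ina was the lowest placed, at 0.82 against 2.67, higher than 3.2% of its neighbours, and Prph and Nefh followed with 8.6% and 11.8%. Nefl was at 0.17 against 0.67, Nefm at 1.49 against 1.94 and Vim at 1.36 against 1.95. These were higher than 16.0%, 30.6% and 23.2% of their neighbours. The ratio of a low gene such as Prph is understated by the 1 TPM added.

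**Figure D4:**
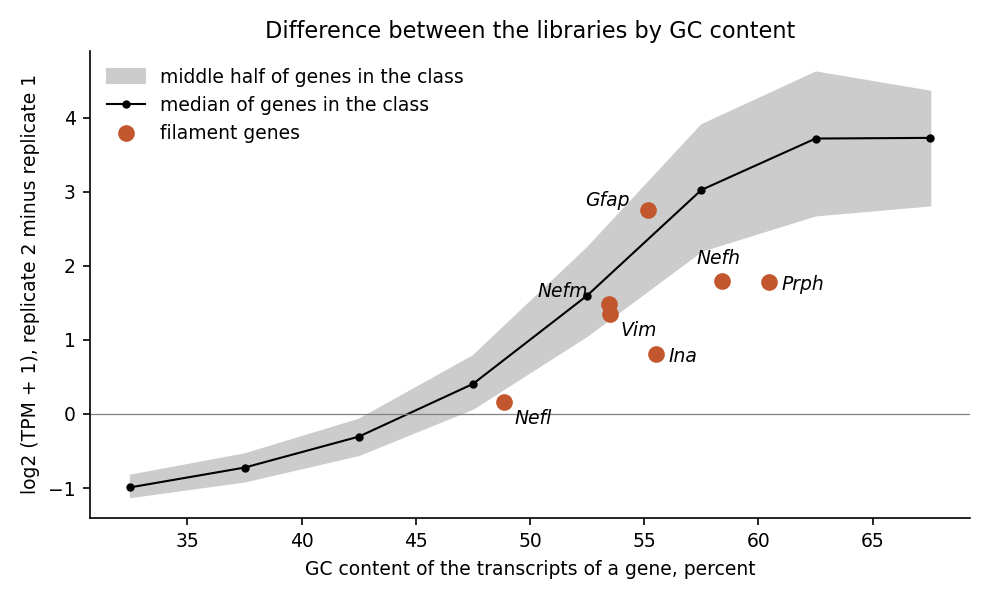
Log2 of (TPM + 1) in replicate 2 minus replicate 1 against GC content in percent: the line and band give the median and the middle part, from the first to the third quartile, of genes in classes 5 percentage points wide, and labelled points are the filament genes. Gfap lies close to the line, while Nefl, Ina, Nefh and Prph lie under the band at their GC content.

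Base composition also varies along each member. The coding sequence of Ina has a GC content of 64.0% and its 3′ untranslated region 47.1%, and in Nefl the values are 59.0% in the coding sequence and 37.6% in the 3′ untranslated region. In windows of 200 bases, 29.5% of those of Ina were under 50% GC, a larger share than in 96.0% of 2758 genes with a GC content of 55 to 60%. For Nefh the share was 17.1%, larger than in 84.1% of that class, and for Gfap it was 16.3%, larger than in 82.4%. For Nefm it was 36.5%, larger than in 65.1% of genes with a GC content of 50 to 55%, and for Vim it was 17.5%, larger than in 21% of that class. Nefl had 51.6%, larger than in 18.7% of its class of 45 to 50%, and Prph had 0%, the median of its class. The part of local composition in the places among GC neighbours was not tested.

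Genes that act on filaments were counted beside the members. Over 55 genes in 6 lists, 52 were tested, 30 were called higher (34.5% of all genes tested were) and 4 lower (24.0%) with TMM, and 33 were higher (43.6%) and 0 lower (7.9%) with library totals. With the GC trend removed, 10 of these genes were called higher (10.4% of all genes tested) and 7 lower (9.25%). The counts below are with TMM unless said otherwise, to be read against the same shares, and the part of GC content in them was not tested. The median log2 TPM ratio of the lists was 1.32 and that of the members was 1.49. Of 14 other intermediate filament genes, 6 of the 11 tested were called higher and 0 lower with TMM and with library totals, but 0 were higher and 3 lower with the GC trend removed. Lmna, a nuclear lamina gene, had 31.4 TPM in replicate 2 and 0.57 in replicate 1, Synm, a large partner of vimentin and desmin, had 8.98 in replicate 2 and 4.66 in replicate 1 and was not called, and Krt8, an epithelial keratin, had 12 counts in replicate 2 and 0 in replicate 1.

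Of 5 linkers, which tie filaments to other cell structures, 3 were called higher and 0 lower, 4 and 0 with library totals, and 1 and 0 with the GC trend removed. Plec, a plakin linker, had 19.6 TPM in replicate 2 and 0.25 in replicate 1. Macf1, which links actin and microtubules, had 90 TPM in replicate 2 and 77.8 in replicate 1, and Dst, whose neuronal form binds filaments, had 73.8 in replicate 2 and 29.0 in replicate 1, and neither was called with TMM, though Dst was called higher with library totals. Ppl, a plakin of the skin, had 0.21 TPM in replicate 2 and 0.01 in replicate 1 and was called higher.

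Of 10 kinases and phosphatases of neurofilament tails, 5 were called higher and 2 lower with TMM, while library totals gave 5 higher and 0 lower, and removing the GC trend gave 3 higher and 3 lower. Mapk3, a kinase that acts on the lysine-serine-proline sites, had 115.5 TPM in replicate 2 and 4.72 in replicate 1 and was called higher. Ppp2ca, a catalytic phosphatase subunit, had 106.9 TPM in replicate 2 and 121.5 in replicate 1 and was called lower with TMM but not with library totals. Of 6 turnover genes, 3 were called higher and 1 lower, 4 and 0 with library totals, and 2 and 0 with the GC trend removed. Fbxo2, a substrate receptor of a ubiquitin ligase, had 80.6 TPM in replicate 2 and 0.31 in replicate 1, Stub1, a chaperone-bound ubiquitin ligase, had 94.4 in replicate 2 and 1.82 in replicate 1, and Trim2, a ubiquitin ligase that binds Nefl, had 68.1 in replicate 2 and 65.8 in replicate 1 and was called lower with TMM but not with library totals or DESeq2 size factors.

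Neurofilaments travel along microtubules, and genes of that system differed widely. Of 9 motor genes, 5 were called higher and 1 lower, 6 and 0 with library totals, and 2 and 0 with the GC trend removed. Kif5a, the kinesin heavy chain tied to neurofilament transport, had 856.9 TPM in replicate 2 and 202.5 in replicate 1, Kif5c, another neuronal heavy chain, had 257.0 in replicate 2 and 219.2 in replicate 1, and Kif5b, the form found in all tissues, had 106.8 in replicate 2 and 211.5 in replicate 1 and was called lower with TMM but not with library totals. Klc2, a kinesin light chain, had 146.2 TPM in replicate 2 and 3.58 in replicate 1. Of 11 axonal microtubule genes, 8 were called higher and 0 lower with TMM and with library totals, against 2 higher and 1 lower with the GC trend removed. Tuba1a, an alpha-tubulin, had 1617 TPM in replicate 2 and 229.6 in replicate 1, and Tubb2a, a beta-tubulin, had 553.9 in replicate 2 and 22.3 in replicate 1. Mapt, the tau gene, had 188.0 TPM in replicate 2 and 31.5 in replicate 1 and was called higher, and Stmn1, which binds free tubulin, had 1019 in replicate 2 and 576.6 in replicate 1 and was not called.

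**Figure D5:**
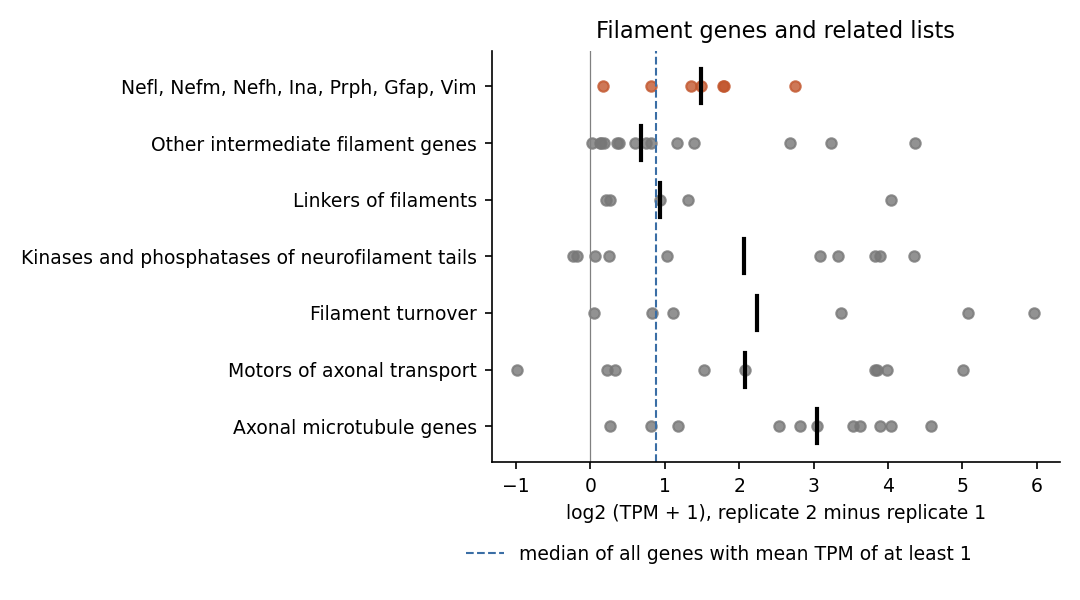
Log2 of (TPM + 1) in replicate 2 minus replicate 1 for the 7 filament genes (top row) and for the genes of 6 related lists, 1 point a gene, with a black bar at each median. The filament genes have a median of 1.49, the axonal microtubule genes one of 3.05, and the dashed line is the median of all genes that average 1 TPM or more, at 0.88; on TMM-scaled counts Nefl and Ina lie under 0.

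By the distance between log2 of (TPM + 1) over the 2 libraries, the genes nearest to each member were as follows, and 2 libraries give only a coarse likeness. Nefl was nearest to Basp1 (273.9 TPM in replicate 2 and 240.1 in replicate 1) and Prkcb. Nefm was nearest to Timp2 (125.9 in replicate 2 and 43.0 in replicate 1) and Becn1. Nefh was nearest to Sugp2 (43.7 in replicate 2 and 11.8 in replicate 1) and Ngrn, and Ina to Trp53inp2 (96.9 in replicate 2 and 53.5 in replicate 1) and Epdr1. Prph was nearest to Clec3b (2.76 in replicate 2 and 0.09 in replicate 1) and Alox12b. Gfap was nearest to Gm16286 (107.3 in replicate 2 and 15.0 in replicate 1) and Nsfl1c, and Vim to Nell1 (29.9 in replicate 2 and 11.2 in replicate 1) and Oprl1. All of these distances were under 0.1 on the log2 scale, the largest being 0.088 for Nefl and Prkcb, and each member thus had genes of nearly the same pair of levels.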

How the data were processed

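For each of the 2 libraries the authors deposited a gene and a transcript table. The authors deposited expected counts, which are estimates and need not be whole, TPM and FPKM (both scaled for length and depth), the percent of a gene held by each transcript, posterior means and SDs, and score-like bounds of TPM. The deposited file listing names mm10 and GENCODE M4. The columns are those RSEM writes; the quantifier, the aligner and the use of strand appear in no source used here.

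Rows without an Ensembl identifier held 1 count in replicate 2 and 0 in replicate 1 and were left out. Symbols, gene models and sequences came from GENCODE M21 (GRCm38), matched without version: 42462 genes had a symbol, and 97.95% of transcripts had a sequence, 90.06% of these at the same length. GC content per gene averages its transcripts by their TPM.

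Expected counts were rounded and compared gene by gene by a two-sided exact binomial test over genes summing to 10 counts or more, with TMM (edgeR 4.0.16, R 4.3.3), Benjamini-Hochberg adjustment over all 16320 genes, and 0.5 added to counts for the fold. This compares 2 libraries and no conditions. With 1 library a side neither the quasi-likelihood test of edgeR nor that of DESeq2 could be fitted; size factors of DESeq2 1.42.0 were an alternative. The test was tested on simulated counts that held counting error and set fold differences but no GC trend. That check cannot speak for calls where such a trend is present. GC trends were lowess fits with a fraction of 0.2 (statsmodels 0.14.6; Python 3.11.15, scipy 1.17.1). A count of 0 allows 3 counts.

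The members and lists were chosen with earlier results of these data known. Genes were named by rule: all members, the called genes of highest and lowest log2 ratio and the 2 most abundant genes in each related list, the 2 nearest to each member, and markers from the 2 most abundant of their list. One linker of the list, Eppk1, was not analysed here, and a few results are not reported here.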

Additional observations from a re-analysis of the deposited data

How the results depend on the processing

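The count of members called different, 2 with TMM, was also 2 with DESeq2 size factors, with no filter on counts and with posterior mean counts; it was 4 with library totals, 6 with no fold threshold and 3, all lower in place of higher, with the GC trend removed. Removing the trend turned the log2 count ratios of Nefm to -0.91, Nefh to -2.94, Prph to -0.89, Gfap to -0.44 and Vim to -1.27, and library totals turned that of Ina to 0.46. The log2 TPM ratios with the trend removed turned to -0.53 for Nefl, -0.40 for Nefm, -1.48 for Nefh, -1.73 for Ina, -1.81 for Prph and -0.54 for Vim, while Gfap stayed above 0 at 0.33. On counts, Nefl turned to -0.81 with TMM and -0.20 with library totals, and Ina to -0.15 with TMM. The related genes called lower, 4 with TMM, were 0 with library totals, 2 with DESeq2 size factors and 2 with no filter. The cause of these changes was not tested.

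Leaving out 1 library gave Nefm over Nefl between 0.185 and 0.468, Nefh over Nefl between 0.0483 and 0.159, Ina over Nefl between 0.232 and 0.366, and Gfap-202 between 8.19% and 20.8%. It leaves no comparison between libraries, so no calls. Prph-202 moved to a mean of 36.8% with posterior means. No paired analysis was possible because there is 1 group. With 2 libraries of 1 mouse, differences between animals were not measured, and Prph in replicate 1 rests on 2 counts.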
